A study of Mus musculus with 17 samples.

Results

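The Hippo pathway is a chain of protein kinases that keeps the transcriptional coactivators YAP and TAZ (genes Yap1 and Wwtr1) out of the nucleus. The kinases MST1 and MST2, with their scaffold SAV1, activate the LATS kinases and their MOB1 partners, which phosphorylate YAP and TAZ. Merlin, KIBRA and the angiomotins act upstream at the membrane and at cell junctions, and in liver the pathway is known for restraining organ size and biliary identity. Described here are 10 genes of this machinery, chosen by name out of the 23461 genes counted: the kinases Stk3 (MST2), Stk4 (MST1) and Lats1, their partners Sav1, Mob1a and Mob1b, and the upstream regulators Nf2 (merlin), Wwc1 (KIBRA), Amot and Amotl1. All 10 were found in the count table and passed the filter on low counts, as did 13721 genes in all.

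The 17 samples were FACS-sorted hepatocytes, the main epithelial cells of the liver, from male mice aged 2 to 3 months. Wildtype (WT) mice gave 5 untreated and 5 CCl4 samples, and Yap/Taz KO mice gave 4 untreated and 3 CCl4 samples. CCl4 (carbon tetrachloride, a solvent toxic to the liver) was given at 1 ug/g for 7 doses at intervals of 3 days, and cells were collected 3 days after the last dose, per the labels. The dose is printed as labelled, and its unit was not checked against another source. The promoter or Cre line behind the knockout is not given in the sources used here, nor is it stated that each sample came from its own animal, so p-values measure the spread between these samples.

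The libraries held 11266420 to 24775863 counts each (median 14786573). The knockout was visible in its targets: Yap1 held 37.4 to 73.6 CPM (counts scaled to a common library size with TMM factors) across the WT libraries and 0.536 to 8.04 in the KO libraries, and Wwtr1 held 9.86 to 23.4 against 1.20 to 7.09. Summed hepatocyte markers (10 genes, none at 0 in all libraries of a group) were between 91463 and 146241 CPM in every library. KO CCl4 replicate 3 stood apart: mitochondrially encoded genes held 34.3% of its counts, 14 macrophage markers summed to 5324 CPM and 14 endothelial markers to 1091 CPM. In the other 16 libraries the highest macrophage sum was 382 CPM and the highest endothelial sum 211 CPM. Replicate 5 of the untreated WT group also had over 30% mitochondrial counts (30.7%). Values of pathway genes that turn on KO CCl4 replicate 3 are given with and without it.

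Per kilobase of exon, untreated WT hepatocytes held most of Wwc1, at 14.2 ± 2.48 CPM per kb (SD, n = 5). Mob1a followed at 6.21 ± 3.23, Nf2 at 3.71 ± 0.823, Lats1 at 3.41 ± 0.733, Mob1b at 2.80 ± 0.301 and Stk4 at 2.64 ± 0.779. Sav1 (1.31 ± 0.256), Amot (1.28 ± 0.403) and Stk3 (1.28 ± 0.226) formed a lower tier, and Amotl1 was last at 0.0760 ± 0.0243. The library ranges of neighbours in this order were separate at only 3 places: between Wwc1 and Mob1a, between Stk4 and Sav1, and above Amotl1. The other neighbours did not differ beyond their spread. In KO CCl4 hepatocytes Mob1a (8.92 ± 1.85 CPM per kb, n = 3) stood above Wwc1 (5.12 ± 2.87), with overlapping library ranges. Exon length is the union of all annotated exons and is 15.0 kb for Mob1b, so a gene that uses only part of its exons is placed too low.

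**Figure D1:**
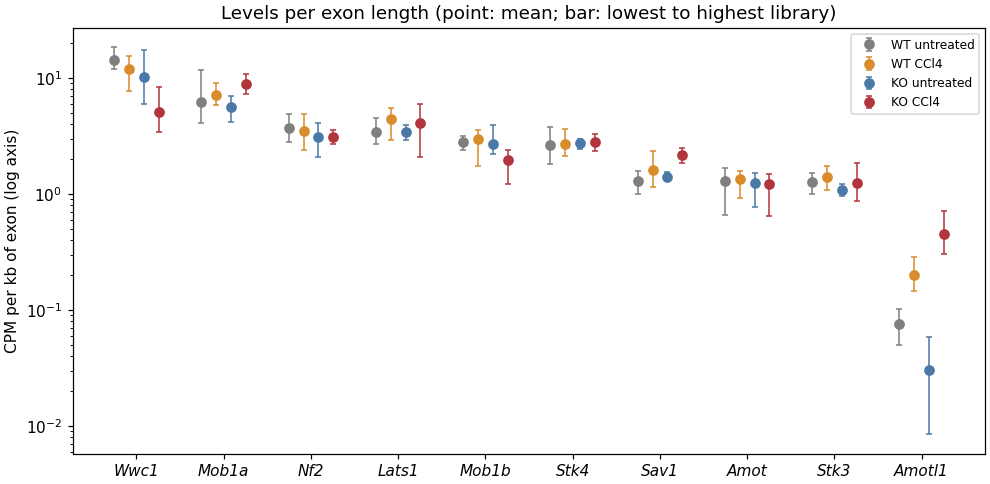
Level of each of the 10 genes per kilobase of exon on a log axis (CPM per kb), with points for group means and bars from the lowest to the highest library. Wwc1 is highest in 3 of the 4 groups, Mob1a is highest in KO CCl4, and Amotl1 is lowest in all 4.

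The genes lie on 9 chromosomes (mm10, GENCODE annotation, all protein coding): Stk3 at chr15:34875496-35178921, Stk4 at chr2:164070322-164155524, Sav1 at chr12:69965012-69987002, Lats1 at chr10:7681214-7716460, Mob1a at chr6:83326016-83343776, Mob1b at chr5:88720855-88764220, Nf2 at chr11:4765845-4849536, Wwc1 at chr11:35838400-35980527, Amot at chrX:145446425-145505181 and Amotl1 at chr9:14541966-14645056. Related members could be told apart: no pair of members shared a 50-base stretch of transcript, and at most 0.763% of the 50-base stretches of any member (Stk3) occurred in another gene. Sav1 shares 25.4% of its exon length with Atl1 on the opposite strand. Atl1 had 306 counts over all 17 libraries, and the strand setting of the counting is not given in the sources used here, so Sav1 is uncertain to that extent.

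YAP and TAZ bind DNA through the TEAD factors, whose core motif is GGAATG. On the other strand this motif reads CATTCC. RefSeq start sites on GRCm38.p6 (the mm10 assembly) were available for 9 of the 10 members, all but Stk3, and the 250 bases before each start were searched on both strands. The motif was in the windows of 2 members, Mob1a and Sav1, and in 4153 of the 32851 windows searched over all genes (12.6%). These are shown because the knockout removes the coactivators that act at this motif, and the windows of Amotl1 and Wwc1 are shown because these members passed a test below. Each runs 5′ to 3′ on the strand of the gene, and capitals mark the motif.
Mob1a (chr6:83325789-83326038, plus strand): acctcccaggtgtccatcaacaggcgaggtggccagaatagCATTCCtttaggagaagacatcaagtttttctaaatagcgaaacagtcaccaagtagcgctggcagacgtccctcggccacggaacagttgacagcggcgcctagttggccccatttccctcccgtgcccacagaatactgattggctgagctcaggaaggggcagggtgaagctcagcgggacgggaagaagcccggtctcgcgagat
Sav1 (chr12:69987003-69987252, minus strand): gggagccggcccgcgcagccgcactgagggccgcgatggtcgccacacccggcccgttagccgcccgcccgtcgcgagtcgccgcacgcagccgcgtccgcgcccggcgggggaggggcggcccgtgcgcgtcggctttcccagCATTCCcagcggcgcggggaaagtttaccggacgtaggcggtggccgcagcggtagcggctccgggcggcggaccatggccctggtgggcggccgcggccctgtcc
Amotl1 (chr9:14615001-14615250, minus strand): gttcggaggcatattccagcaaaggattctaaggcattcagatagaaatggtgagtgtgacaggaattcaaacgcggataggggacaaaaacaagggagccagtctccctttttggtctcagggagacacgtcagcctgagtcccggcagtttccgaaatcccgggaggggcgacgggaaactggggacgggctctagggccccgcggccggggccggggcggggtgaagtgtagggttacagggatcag
Wwc1 (chr11:35980528-35980777, minus strand): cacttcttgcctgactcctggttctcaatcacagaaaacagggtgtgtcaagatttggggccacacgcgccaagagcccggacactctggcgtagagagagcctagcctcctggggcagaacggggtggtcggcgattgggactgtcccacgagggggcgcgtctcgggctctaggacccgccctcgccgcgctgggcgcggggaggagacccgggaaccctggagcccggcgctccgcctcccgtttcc
The motif began 209 bases before the start of Mob1a and 106 bases before that of Sav1. The windows of Amotl1 and Wwc1 did not contain these letters, and a match or its absence is a description of the window only. The Amotl1 window lies inside the annotated span of the gene (chr9:14541966-14645056), and the bases before the outer end of that span were not searched.

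Across the 5 contrasts tested with edgeR's quasi-likelihood test (Benjamini-Hochberg adjustment over all 13721 genes, call at an adjusted p under 0.05), 8 of the 10 members passed in none. Amotl1 rose with CCl4 in KO hepatocytes, and Wwc1 was lower in KO than in WT hepatocytes after CCl4. In WT hepatocytes CCl4 changed 0 of 10 members, where 0.853% of all genes passed. In KO hepatocytes 1 of 10 rose and 0 fell, where 19% of all genes passed (12.1% higher and 6.96% lower). Between genotypes, 0 of 10 differed in untreated hepatocytes, where 0.933% of all genes passed. After CCl4, 0 of 10 were higher and 1 was lower in the KO, where 11.8% passed (7.62% higher and 4.21% lower). The CCl4 effect differed between genotypes for 0 of 10 members and for 1.09% of all genes.

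At an unadjusted p under 0.05 the same 5 contrasts held 1, 4, 1, 3 and 1 of the 10 members, beside 14.7%, 30.3%, 8.77%, 25.9% and 17.1% of all genes tested. DESeq2 called 1, 2, 0, 1 and 1 members in that order, beside 3.63%, 21.3%, 2.41%, 15.4% and 5.87% of the genes it gave an adjusted p. Counts this small over 10 genes do not set the members apart from these shares. The median log2 fold change over the members was 0.10 for CCl4 in WT, against -0.01 over all genes tested, and 0.10 against 0.01 for CCl4 in KO. Between genotypes it was -0.10 against -0.01 without CCl4 and -0.11 against 0.04 with it. Group ranges were separate for 1 member with CCl4 in WT (4.84% of all genes), 3 in KO (25.2%), 0 between untreated genotypes (3.64%) and 1 between genotypes after CCl4 (18.1%). The median SD of log2 CPM within groups was 0.39 for the members and 0.39 for all genes tested.

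**Figure D2:**
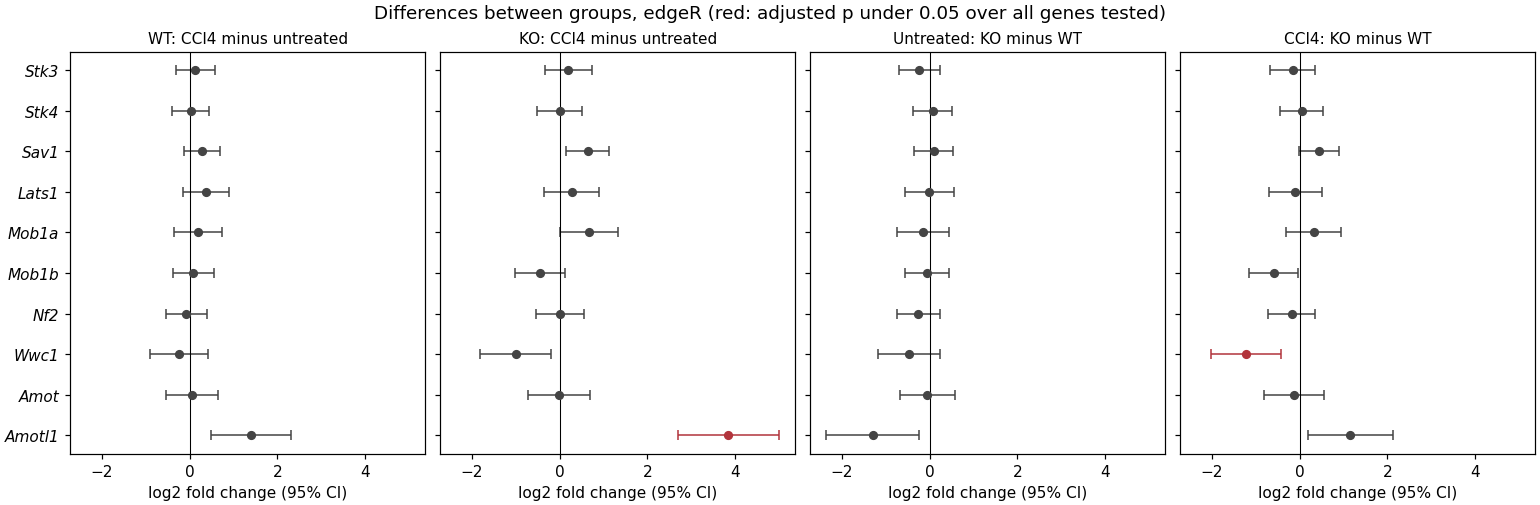
Log2 fold change of each gene in the 4 contrasts of 2 groups, with 95% confidence intervals, and red marks for an adjusted p under 0.05. Only Amotl1 with CCl4 in KO (3.85) and Wwc1 between genotypes after CCl4 (-1.22) are red, and the intervals of Stk3, Stk4, Lats1, Nf2 and Amot span 0 in all 4 panels.

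No difference of the MST kinases passed in any contrast. Stk3, the kinase MST2, ranged over 6.07 to 9.34 CPM in untreated WT, 6.68 to 10.8 in WT CCl4, 5.86 to 7.44 in untreated KO and 5.38 to 11.4 in KO CCl4. Its 11.4 CPM was in KO CCl4 replicate 3, and the other 2 libraries of that group held 5.38 and 6.19, the former the lowest of all 17. The log2 fold change with CCl4 was 0.12 ± 0.21 (SE; 95% interval -0.32 to 0.57) in WT and 0.20 ± 0.25 (-0.34 to 0.74) in KO, the latter turning to -0.20 without replicate 3. Stk4, the kinase MST1, ranged over 10.6 to 22.3 CPM in untreated WT, 12.5 to 21.1 in WT CCl4, 14.4 to 17.5 in untreated KO and 13.9 to 19.4 in KO CCl4. Its log2 fold change was 0.03 ± 0.20 (-0.39 to 0.45) with CCl4 in WT and 0.00 ± 0.24 (-0.50 to 0.51) in KO. Between genotypes Stk4 differed by 0.07 ± 0.21 without CCl4 and by 0.05 ± 0.23 with it, while Stk3 differed by -0.23 ± 0.22 and -0.15 ± 0.24, the latter -0.55 without KO CCl4 replicate 3. All 8 of these intervals lay within a 2-fold change in either direction.

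Sav1, the scaffold that joins the MST kinases to LATS, held 8.12, 6.85, 6.98 and 7.37 CPM in untreated KO replicates 1 to 4 and 11.6, 9.76 and 13.1 CPM in KO CCl4 replicates 1 to 3. The KO groups did not overlap, and the log2 fold change was 0.64 ± 0.23 (95% interval 0.15 to 1.13). It did not pass in edgeR (adjusted p = 0.0643). It passed in 2 of 25 alternatives: in DESeq2 at 0.67 (adjusted p = 0.0369) and without WT CCl4 replicate 5 at 0.64 (adjusted p = 0.0377). Without KO CCl4 replicate 3, the library with the highest Sav1 of its group, it was 0.54 (adjusted p = 0.199). In WT hepatocytes Sav1 ranged over 5.28 to 8.37 CPM untreated and 6.05 to 12.3 CPM with CCl4, where only replicate 5 lay above 8.73, and the log2 fold change was 0.29 ± 0.19 (adjusted p = 0.523). The difference between these CCl4 effects was 0.35 ± 0.30 (adjusted p = 0.61).

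Lats1, the kinase that phosphorylates YAP and TAZ, ranged over 19.7 to 33.2 CPM in untreated WT, 21.5 to 39.9 in WT CCl4, 21.3 to 28.5 in untreated KO and 15.2 to 43.2 in KO CCl4. The spread was widest in the last group, where replicates 1 to 3 held 31.7, 43.2 and 15.2 CPM. Its log2 fold change with CCl4 was 0.37 ± 0.25 (-0.15 to 0.89) in WT and 0.28 ± 0.29 (-0.35 to 0.90) in KO, the latter 0.59 without KO CCl4 replicate 3, and it differed between untreated genotypes by -0.00 ± 0.26 (-0.55 to 0.55). Its paralog Lats2, a known YAP target that was not among the members, differed by 0.30 ± 0.25 between untreated genotypes and by -0.08 ± 0.27 after CCl4 (adjusted p = 0.84 and 0.891).

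The MOB1 proteins bind LATS and are needed for its full activity. Mob1a held 30.6, 20.1, 33.4 and 23.1 CPM in untreated KO replicates 1 to 4 and 34.8, 41.2 and 52.3 CPM in KO CCl4 replicates 1 to 3, without overlap, a log2 difference of 0.67 ± 0.31 (0.01 to 1.33) that did not pass (adjusted p = 0.158) and passed without untreated WT replicate 4 (0.68, adjusted p = 0.0355). Without KO CCl4 replicate 3, Mob1a differed between the KO groups by 0.50 (adjusted p = 0.4). In WT hepatocytes it held 22.6, 21.2, 28.8, 56.7 and 19.6 CPM untreated and 29.7, 36.1, 33.4, 28.0 and 43.5 CPM with CCl4. Untreated WT replicate 4 was the highest of all 17 libraries, and the 2 WT groups overlapped (0.20 ± 0.26, adjusted p = 0.788). Mob1b held 58.6, 33.8, 35.9 and 33.1 CPM in untreated KO and 33.9, 36.3 and 18.3 CPM in KO CCl4, which overlapped (-0.45 ± 0.27, adjusted p = 0.288). Against the 26.4 to 54.0 CPM of WT CCl4, the KO CCl4 libraries were lower by a log2 difference of -0.59 ± 0.26 that also did not pass (adjusted p = 0.16). Without KO CCl4 replicate 3, which held 18.3 CPM, these Mob1b differences were -0.20 and -0.34.

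Related genes were also compared as ratios within a library, in which the scaling of libraries cancels except through the constant added to low values. The log2 ratio of Mob1a to Mob1b (0.5 CPM added to each) was -0.93, -0.73, -0.10 and -0.51 in untreated KO and 0.04, 0.18 and 1.49 in KO CCl4. Every KO CCl4 value was above 0, and the KO groups did not overlap. The difference of 1.14 had the smallest p that 4 against 3 samples allow in a two-sided exact permutation test (p = 0.0286), and after Benjamini-Hochberg adjustment over 12 tests it did not pass (adjusted p = 0.143). Untreated WT ratios ran from -1.16 to 0.26 and overlapped those of KO CCl4. Against WT CCl4, whose ratios ran from -0.71 to 0.08 and also overlapped, the difference was 0.92 (exact permutation p = 0.0357, adjusted p = 0.143). Without KO CCl4 replicate 3, whose ratio was the highest of all 17, these differences were 0.68 and 0.46 (both adjusted p = 0.286). For Amot to Amotl1 the ratio was 3.83, 3.58, 4.02 and 3.60 in untreated KO and 1.89, 1.74 and -0.37 in KO CCl4, again without overlap. The difference of -2.67 did not pass after adjustment (exact permutation p = 0.0286, adjusted p = 0.143). Its size depends on the added constant because Amotl1 was low: it was -3.67 with 0.1 CPM and -2.09 with 1 CPM, and -1.94 without KO CCl4 replicate 3. None of the 4 differences of Stk3 to Stk4 passed, and they lay between -0.32 and 0.13.

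**Figure D3:**
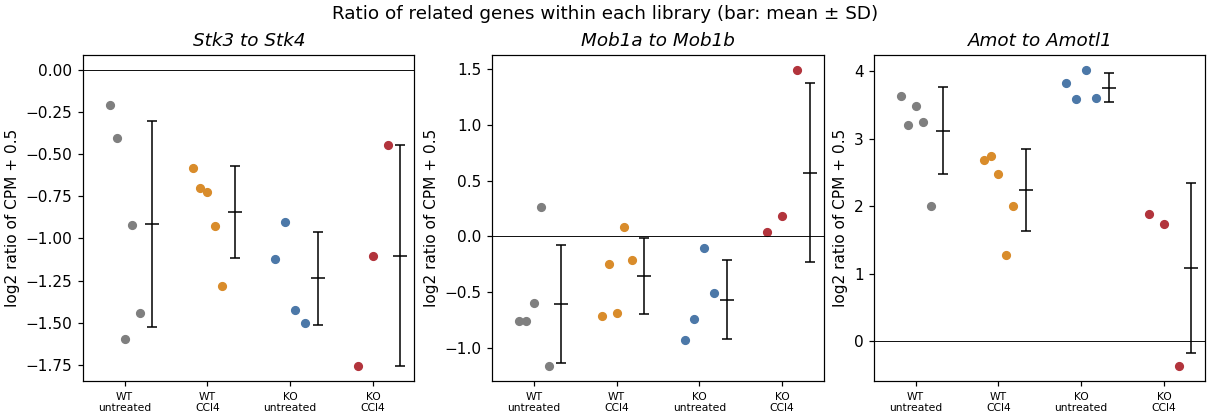
Log2 ratio of CPM (0.5 added) for 3 pairs of related genes in each of the 17 libraries, with the mean and SD of each group. All 3 KO CCl4 libraries lie above 0 for Mob1a to Mob1b, as do replicate 4 of untreated WT (0.26) and of WT CCl4 (0.08). For Amot to Amotl1 they lie at 1.89 or lower, as does WT CCl4 replicate 4 (1.28), while Stk3 to Stk4 overlaps between all groups.

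Upstream, the 2 regulators Nf2 and Amot had no difference that passed. Nf2, whose product merlin recruits LATS to the membrane, ranged over 19.2 to 33.3 CPM in untreated WT, 16.5 to 33.4 in WT CCl4, 14.1 to 28.0 in untreated KO and 18.4 to 24.6 in KO CCl4. Its log2 fold change with CCl4 was -0.07 ± 0.22 (-0.53 to 0.39) in WT and 0.01 ± 0.26 (-0.55 to 0.56) in KO. Between genotypes it differed by -0.26 ± 0.23 (-0.75 to 0.23) without CCl4 and by -0.18 ± 0.25 (-0.71 to 0.36) with it. Amot, an angiomotin that binds YAP and holds it in the cytoplasm, ranged over 5.57 to 14.1 CPM in untreated WT, 7.71 to 13.4 in WT CCl4, 6.50 to 12.6 in untreated KO and 5.43 to 12.6 in KO CCl4. Its 4 log2 differences lay between -0.13 and 0.06, with intervals from -0.81 to 0.69. Without KO CCl4 replicate 3 its difference was 0.28 with CCl4 in KO and 0.17 between genotypes after CCl4.

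Wwc1, the gene for KIBRA, a scaffold that works with merlin to activate LATS, held 65.1, 68.0, 66.8, 59.8 and 91.6 CPM in untreated WT replicates 1 to 5. WT CCl4 libraries held 77.0, 67.2, 46.1, 38.2 and 68.0 CPM, untreated KO libraries 86.4, 54.0, 29.6 and 32.9 CPM, and KO CCl4 libraries 17.2, 41.8 and 17.1 CPM. Replicates 1 and 3 of KO CCl4 were the lowest of all 17, and replicate 2 lay within the WT CCl4 range. Wwc1 was thus lower in KO than in WT hepatocytes after CCl4 by a log2 difference of -1.22 ± 0.37 (95% interval -2.01 to -0.43; 0.43-fold; adjusted p = 0.0441), although the groups overlapped. The call was lost in 16 of 25 alternative analyses. Over all 25 the adjusted p ran from 0.00962 to 0.22. Without KO CCl4 replicate 3 the difference was -1.0 (adjusted p = 0.22), without replicate 1 it was -1.01 (adjusted p = 0.126), and without replicate 2 it was -1.79 (adjusted p = 0.00962).

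With CCl4 in KO hepatocytes Wwc1 had a log2 fold change of -1.0 ± 0.38 (-1.81 to -0.19), which did not pass (adjusted p = 0.084). It passed in 3 of 25 alternatives. One held the replicate number as a block (-1.09, adjusted p = 0.0404), although these numbers are not known to pair samples. The others were without KO CCl4 replicate 2 (-1.57, adjusted p = 0.0142) and without untreated KO replicate 3 (-1.18, adjusted p = 0.0471). Without KO CCl4 replicate 3 the value was -0.78 (adjusted p = 0.266), and without untreated KO replicate 1 it was -0.61 (adjusted p = 0.285). In WT it was -0.25 ± 0.31 (adjusted p = 0.772), and with unscaled library totals it was 0.17. The difference between these CCl4 effects was -0.75 ± 0.49 (-1.78 to 0.28; adjusted p = 0.47), and untreated KO differed from untreated WT by -0.47 ± 0.33 (adjusted p = 0.784). KO CCl4 replicate 2, the Wwc1-high library of its group, had 382 CPM of summed macrophage markers and 4.25% mitochondrial counts, against 160 CPM and 7.49% in replicate 1. In sorted bulk samples, fewer cells of a type and less RNA per cell cannot be told apart.

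Amotl1, an angiomotin found at endothelial and epithelial junctions, was the member with the lowest level and the largest change. It held 0.395, 0.0856, 0.165 and 0.586 CPM in untreated KO replicates 1 to 4 and 3.05, 3.43 and 7.17 CPM in KO CCl4 replicates 1 to 3, from 20 and 238 counts in all. Every KO CCl4 library lay above every untreated KO library, and Amotl1 rose by a log2 fold change of 3.85 ± 0.55 (95% interval 2.69 to 5.01; 14.4-fold; adjusted p = 0.000391). The call held in all 25 alternatives, at 3.37 to 4.27, with a highest adjusted p of 0.0159 when only these groups were fitted. Leaving out KO CCl4 replicate 3 gave 3.37 (adjusted p = 0.00167).

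In WT hepatocytes Amotl1 held 0.504, 0.584, 0.691, 1.03 and 1.01 CPM untreated and 1.50, 1.58, 1.46, 2.88 and 2.71 CPM with CCl4. These groups did not overlap either, with a log2 fold change of 1.39 ± 0.43 (0.48 to 2.30) that did not pass in edgeR (adjusted p = 0.144). It passed in DESeq2 (1.40, adjusted p = 0.0451) and with unscaled library totals (1.78, adjusted p = 0.0338), a scaling that moved the median of all genes from -0.01 to 0.38. The CCl4 effect was larger in KO than in WT by 2.46 ± 0.68 on the log2 scale (1.02 to 3.90), which did not pass in edgeR (adjusted p = 0.079) and passed in DESeq2 (2.51, adjusted p = 0.017). Without KO CCl4 replicate 3 this difference was 1.97 (adjusted p = 0.25), and without replicate 1 it was 2.66 (adjusted p = 0.0403). Between genotypes Amotl1 differed by -1.30 ± 0.50 without CCl4 (adjusted p = 0.379) and by 1.16 ± 0.46 with it (adjusted p = 0.118), and the latter was 0.68 without KO CCl4 replicate 3.

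**Figure D4:**
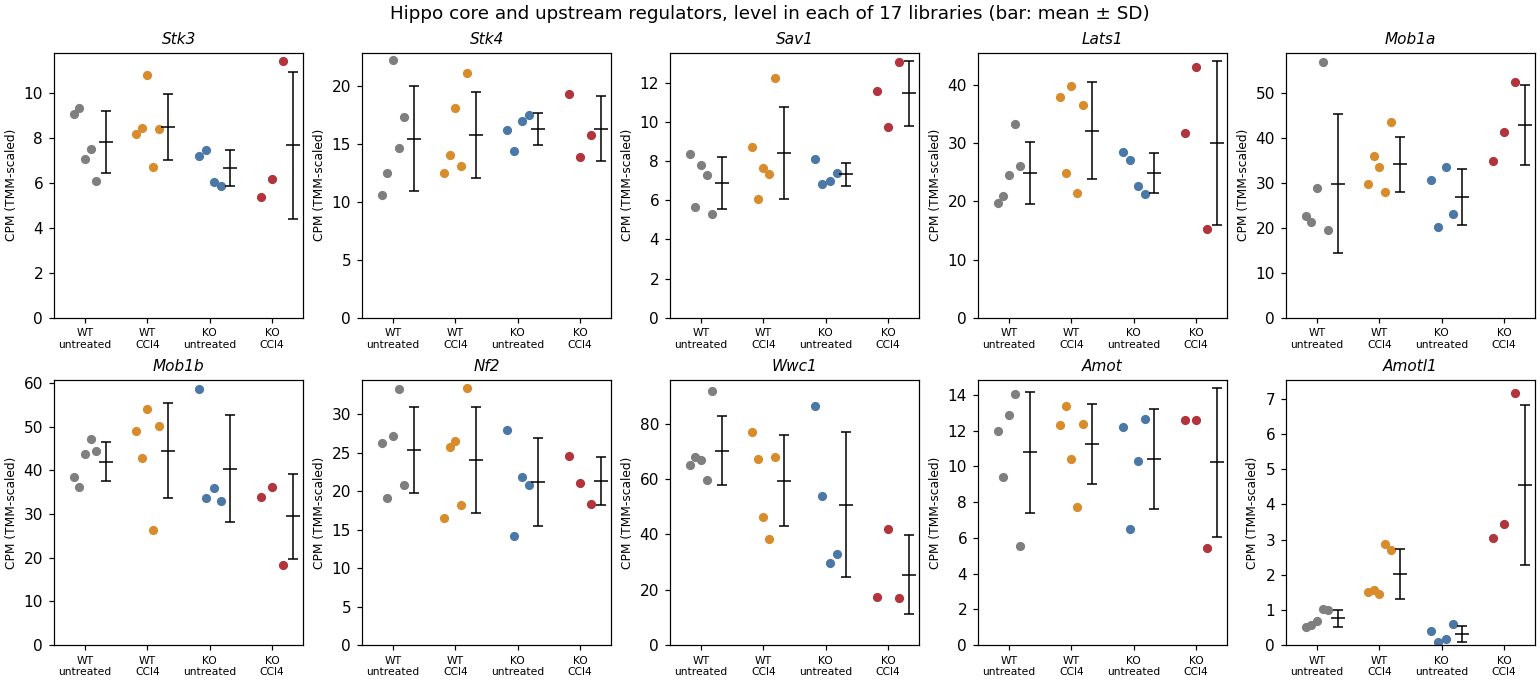
Level of each of the 10 genes in each of the 17 libraries (TMM-scaled CPM, axes from 0), with the mean and SD of each group. The 3 KO CCl4 libraries lie above all others for Amotl1 (3.05 to 7.17), and 2 of them are the lowest for Wwc1 (17.1 and 17.2).

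Markers of other liver cells also differed between the KO groups and, after CCl4, between the genotypes. The 14 endothelial markers summed to 11.7 to 55.7 CPM in untreated WT, 46.5 to 211 in WT CCl4, 27.5 to 41.1 in untreated KO, and 165, 123 and 1091 CPM in KO CCl4 replicates 1 to 3. The 12 stellate cell markers summed to 4.52 to 21.7, 18.1 to 72.0, 8.08 to 12.3 and 81.9 to 200 CPM in the same order of groups, and the 14 macrophage markers to 20.2 to 76.4, 52.6 to 148, 28.3 to 67.9 and 160 to 5324 CPM. Of the tested markers, 13 of 14 endothelial, 7 of 9 stellate and 14 of 14 macrophage genes rose with CCl4 in KO (12.1% of all genes). In the same contrast 3 of 10 hepatocyte genes fell (6.96% of all genes). With CCl4 in WT, where 0.853% of all genes passed, 2 of 14 endothelial, 1 of 9 stellate and 0 of 14 macrophage genes rose. Median log2 fold changes of these 3 lists were 2.56, 2.00 and 2.30 in WT, and 3.94, 5.99 and 8.67 in KO. The marker calls and medians given here include KO CCl4 replicate 3 and were not recomputed without it. Its macrophage sum was 5324 CPM, against 160 and 382 CPM in replicates 1 and 2 of that group. Between untreated genotypes, where 0.933% of all genes passed, none of the tested markers passed. After CCl4, in the contrast where Wwc1 passed, 14 of 14 macrophage, 6 of 14 endothelial and 0 of 9 stellate genes were higher in KO than in WT. Of all genes 7.62% were higher and 4.21% lower in that contrast, and 2 of 10 hepatocyte genes were lower. In untreated WT the stellate marker Acta2 was at 0 in every library, and in untreated KO Acta2, Pdgfrb and the cholangiocyte markers Krt19 and Cftr were at 0. WT CCl4 replicate 4, the library with the highest Amotl1 of its group (2.88 CPM), also had the highest endothelial sum (211 CPM), and KO CCl4 replicate 3 had the highest of both among all 17. The endothelial order was not the same throughout: KO CCl4 replicate 2 held more Amotl1 than replicate 1 (3.43 against 3.05 CPM) with a lower endothelial sum (123 against 165 CPM). In KO CCl4 replicates 1 to 3 the stellate sums (81.9, 102 and 200 CPM) and macrophage sums (160, 382 and 5324 CPM) had the order of Amotl1. WT CCl4 replicate 4 also had the highest stellate (72.0 CPM) and macrophage (148 CPM) sums of its group. In WT CCl4 replicates 1 to 5 the endothelial sums were 64.5, 88.2, 46.5, 211 and 121 CPM. The macrophage sums were 76.5, 81.4, 52.6, 148 and 90.1 CPM in these libraries. Both had the order of Amotl1 (1.50, 1.58, 1.46, 2.88 and 2.71 CPM), while the stellate sums did not. In that group replicate 2 had a higher stellate sum than replicate 5 (69.1 against 29.1 CPM) with less Amotl1 (1.58 against 2.71 CPM). The 8 cholangiocyte markers found summed to 22.4 to 94.3 CPM over all libraries, and the 8 lymphocyte markers found to at most 1.05 CPM outside KO CCl4 and 2.33 to 52.7 CPM within it. The part of these cells in the rise of Amotl1 or in the lower Wwc1 was not tested.

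**Figure D5:**
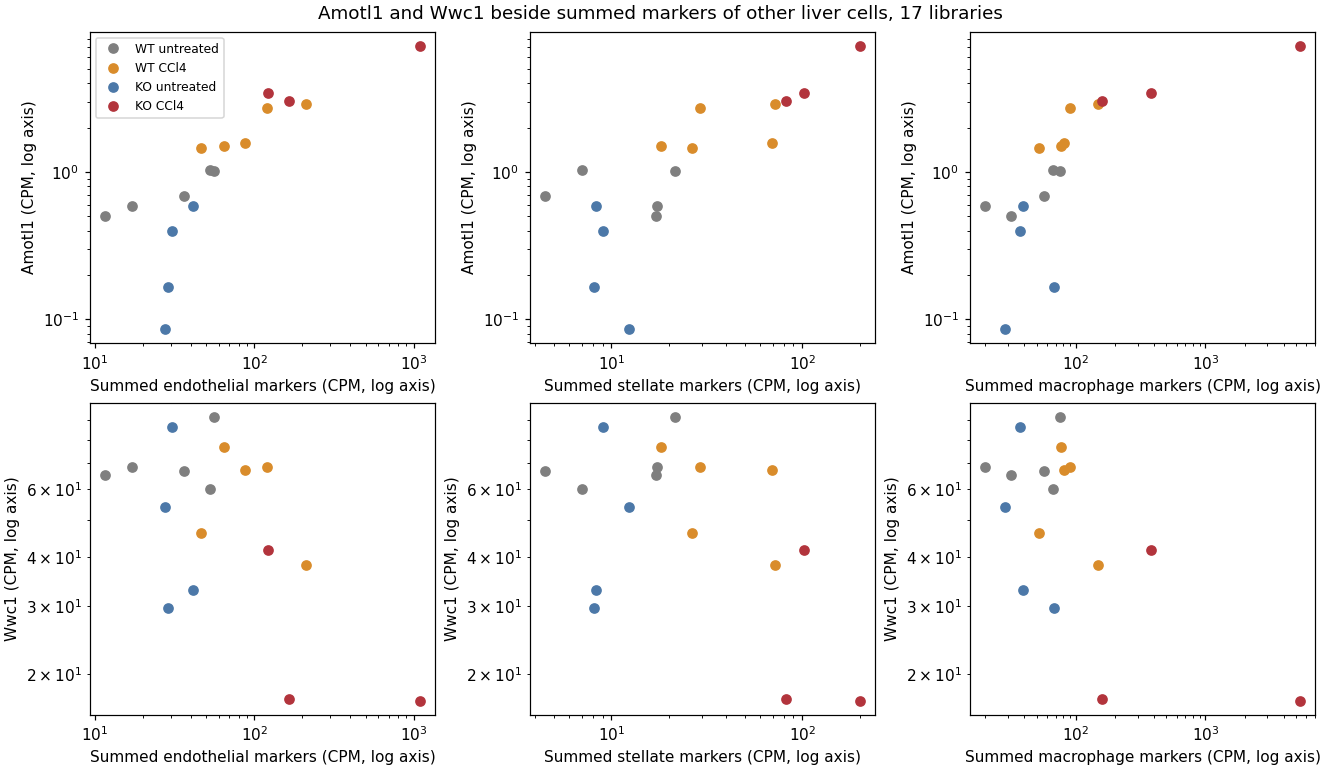
Level of Amotl1 (upper row) and Wwc1 (lower row) in each of the 17 libraries against summed markers of endothelial, stellate and macrophage cells, all in CPM on log axes. KO CCl4 replicate 3 is at the far right for macrophages (5324 CPM) with the highest Amotl1 (7.17) and the lowest Wwc1 (17.1).

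Patterns nearest to the 2 members were found over the 17 libraries as the root mean square difference of log2 CPM after centring each gene. Nearest to Amotl1 were Fbn1 (0.37), which encodes the matrix protein fibrillin, Dchs1 (0.39), a protocadherin ligand of FAT4, and Loxl2 (0.40), a collagen-modifying lysyl oxidase, where the median over all genes tested was 1.06. All 3 were low, with means of 0.560, 0.773 and 0.679 CPM. Nearest to Wwc1 were Habp4 (0.40), Ank3 (0.41), a membrane-cytoskeleton ankyrin, and Vezt (0.42), a junction protein, against a median of 0.82.

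Among 49 other genes of the pathway, 48 were tested. With CCl4 in WT 0 passed, where 0.853% of all genes did. With CCl4 in KO 5 passed as higher and 0 as lower, beside 12.1% and 6.96% of all genes. Between untreated genotypes 0 passed, where 0.933% of all genes did. After CCl4 3 passed as higher and 0 as lower in KO than in WT, beside 7.62% and 4.21% of all genes. The difference of CCl4 effects passed for 0 of 48 and for 1.09% of all genes. These counts do not set the 48 genes apart from the shares of all genes. At an unadjusted p under 0.05 the 5 contrasts held 6, 12, 1, 11 and 4 of the 48, in each contrast a smaller share than the 14.7%, 30.3%, 8.77%, 25.9% and 17.1% of all genes. The median log2 fold change of these genes was -0.02, 0.10, -0.00, 0.09 and 0.14, in the same order.

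Of the other kinases, Map4k4, which can phosphorylate LATS in parallel to MST, had the largest rise. It held 1.49, 0.257, 1.04 and 1.17 CPM in untreated KO and 24.8, 67.2 and 27.9 CPM in KO CCl4, a log2 fold change of 5.28 ± 0.88 (adjusted p = 0.000829) that was 5.48 without KO CCl4 replicate 3 (adjusted p = 0.00247). In WT hepatocytes it held 0.302, 0.667, 3.33, 2.58 and 12.9 CPM untreated and 20.1, 10.6, 14.3, 8.29 and 13.1 CPM with CCl4 (1.72 ± 0.65, adjusted p = 0.219), where untreated replicate 5 overlapped the treated group. Without that library the WT difference passed. Map4k1, a kinase of blood cells, rose in KO by 3.94 ± 1.17 (adjusted p = 0.0257) and did not pass without KO CCl4 replicate 3 (2.53, adjusted p = 0.193). Untreated KO libraries held 0 to 4 counts of it.

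Among scaffolds and junction regulators, the protocadherins Dchs1 (3.57 ± 0.94, adjusted p = 0.0137) and Fat4 (3.29 ± 0.99, adjusted p = 0.0272), which act as ligand and receptor, rose with CCl4 in KO, as did Rassf2 (3.28 ± 0.90, adjusted p = 0.0171), which binds the MST kinases. All were low, with 0 to 64 (Dchs1), 0 to 25 (Fat4) and 2 to 140 (Rassf2) counts per library. None of the 3 passed without KO CCl4 replicate 3: the values were 2.64, 2.54 and 1.42 (adjusted p = 0.091, 0.138 and 0.299). After CCl4, Rassf2 (2.95 ± 0.81, adjusted p = 0.0272) and Rassf4 (2.87 ± 0.83, adjusted p = 0.0347) were higher in KO than in WT, and so was the kinase Csnk1e (1.19 ± 0.37, adjusted p = 0.0457), which helps mark YAP for degradation. Without KO CCl4 replicate 3 they were at 1.09, 0.95 and 0.78 and did not pass (adjusted p = 0.522, 0.602 and 0.314). Amotl2, the third angiomotin and a known YAP target, had a value of the other sign than Amotl1, at -1.61 ± 0.56 with CCl4 in KO. It did not pass in edgeR (adjusted p = 0.0561) and passed in DESeq2 (adjusted p = 0.0175). Without KO CCl4 replicate 3 it was -1.33 (adjusted p = 0.201). Its KO CCl4 libraries held 22.7, 7.19 and 6.77 CPM. The untreated KO libraries held 65.6, 15.8, 32.9 and 34.4 CPM of Amotl2, and the groups overlapped. The 13 antagonists of the kinases (the STRIPAK phosphatase complex and the Ajuba family) had no call in any contrast.

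A difference that did not pass is not shown to be absent, and the 95% intervals set its size. For members that did not pass, the interval lay within a 2-fold change in either direction for 9 of 10 with CCl4 in WT, 5 of 9 with CCl4 in KO, 8 of 10 between untreated genotypes and 7 of 9 between genotypes after CCl4. For the difference of CCl4 effects this held for 5 of 10.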

How the data were processed

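The authors deposited 1 table of read counts per gene with a column for each of the 17 samples. The submitters' processing notes name STAR 2.4.1d with mm10, FastQC, DESeq2, edgeR and limma. How reads were assigned to genes, and with which strand setting, is not given in the sources. Per the labels, RNA came from Qiagen MicroRNEasy columns and the library kit was NEBNext Ultra II RNA. Symbols were matched for 22914 of 23461 identifiers.

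An edgeR model (version 4.0.16, in R 4.3.3) held a mean per group over all samples, after filterByExpr (minimum count 10, minimum total 15), TMM scaling and robust dispersion. Contrasts used its quasi-likelihood F test, and p-values were adjusted by Benjamini-Hochberg over the 13721 genes that passed. Standard errors are the size of the log2 fold change divided by √F. DESeq2 1.42.0 was an alternative, and results were recomputed under other scalings, filters and fits and without each library. The pipeline was tested on simulated data. Levels are TMM-scaled CPM.

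Named genes were the members, Yap1 and Wwtr1, called genes of the pathway list, Lats2 and Amotl2, and the 3 genes nearest in pattern to each called member. The members and lists were chosen with earlier results of these data known. An analysis without both libraries above 30% mitochondrial counts was added after seeing the data. No pair of columns was identical (lowest chi-square per gene between replicates 23.4), and no sample was left out.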

Additional observations from a re-analysis of the deposited data

Results flagged for a closer look

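Within groups of 4 or more samples, 39 sets of values of the members were checked for a library far from the rest of its group, of which chance alone flags about 1 in 20, and 4 were found. Mob1a was 56.7 CPM in untreated WT replicate 4, where the next library held 28.8 CPM. Wwc1 was 91.6 CPM in untreated WT replicate 5, against 68.0 CPM in the next. The log2 ratio of Amot to Amotl1 was 2.00 in the same library, against 3.19 in the nearest. Mob1b was 58.6 CPM in untreated KO replicate 1, against 35.9 CPM in the next. Untreated WT replicate 5 is the library with 30.7% mitochondrial counts, and the part of this in its values was not tested. Groups of 3 samples were not checked.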

How the results depend on the processing

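Over 1445 recomputed log2 fold changes of the members and other named genes, 60 changed sign (members and Lats2), and in all 60 the gene passed the test under neither setting. Amotl1 with CCl4 in KO passed in all 25 alternatives, and Wwc1 between genotypes after CCl4 in 9 of 25. The cause of these changes was not tested. With unscaled library totals, log2 values turned to 0.29 (Nf2) and 0.17 (Wwc1) with CCl4 in WT, 0.21 (Amot) with CCl4 in KO, 0.14 (Lats1), 0.12 (Mob1b) and 0.079 (Amot) between untreated genotypes, and -0.011 (Stk4) between genotypes after CCl4. This scaling raised the share of calls that were higher from 67.5% to 94.8% for CCl4 in WT, from 63.4% to 83.6% in KO and from 62.5% to 74.2% between untreated genotypes, and lowered it from 72.7% to 60.7% for the difference of effects. Amot with CCl4 in KO turned to 0.0081 (RLE), 0.0013 (CPM filter) and 0.0089 (DESeq2), and Stk4 to -0.0057 (no filter). Lats1 between untreated genotypes turned to 0.023 (no filter) and 0.0098 (replicate block). Without the 2 libraries of high mitochondrial counts the values were -0.11 (Amot, CCl4 in WT), -0.19 (Stk3) and 0.28 (Amot) with CCl4 in KO, 0.015 (Lats1) between untreated genotypes, and 0.22 (Lats1), 0.17 (Amot) and 0.0097 (Lats2) between genotypes after CCl4.

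Of all genes, 117 passed with CCl4 in WT, and 651 (totals), 494 (DESeq2), 49 (replicate block) and 187 (without the mitochondrial libraries) in alternatives. With CCl4 in KO 2610 passed, and 1273 when only those groups were fitted, of which 77.7% rather than 63.4% were higher. Between untreated genotypes 128 passed and 328 in DESeq2, of which 47.3% rather than 62.5% were higher. After CCl4, 1622 passed between genotypes, 867 with the block and 555 without the mitochondrial libraries. For the difference of effects 150 passed, against 28 (totals), 33 (no filter), 88 (CPM filter), 783 (DESeq2), 3 (block) and 9 (without the mitochondrial libraries). Members passing became 1 (totals, DESeq2) for CCl4 in WT and 2 (DESeq2, block) in KO. They became 0 between genotypes after CCl4 with totals, no filter, the CPM filter, the fit of those groups only, and without the mitochondrial libraries, and 1 for the difference of effects in DESeq2. Other pathway genes passing became 1 (totals), 2 (DESeq2) and 1 (without the mitochondrial libraries) for CCl4 in WT, 3 (CPM filter), 1 (those groups only) and 2 (without the mitochondrial libraries) in KO, 1 (totals, no filter) and 0 (block, without the mitochondrial libraries) between genotypes after CCl4, and 2 (DESeq2) for the difference of effects.

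Leaving out each library in turn gave 63 to 179 genes with CCl4 in WT, 1666 to 3079 in KO, 418 to 2216 between genotypes after CCl4 and 0 to 867 for the difference of effects. The low ends came without untreated WT replicate 3 (63), without KO CCl4 replicate 3 (1666 and 418) and, among others, without untreated WT replicate 4 (0). The high ends came without KO CCl4 replicate 3 (179) and without KO CCl4 replicate 1 (3079, 2216 and 867). Members passing ran from 1 to 2 with CCl4 in KO and from 0 to 1 after CCl4 and for the difference of effects. Other pathway genes ran from 0 to 1 in WT, 2 to 8 in KO, 0 to 5 after CCl4 and 0 to 2 for the difference of effects. Log2 ranges with CCl4 in WT were -0.10 to 0.20 (Stk4), -0.22 to 0.057 (Nf2) and -0.11 to 0.19 (Amot). In KO they were -0.20 to 0.39 (Stk3), -0.15 to 0.11 (Stk4), -0.085 to 0.59 (Lats1), -0.14 to 0.17 (Nf2) and -0.20 to 0.28 (Amot). Between untreated genotypes they were -0.038 to 0.24 (Stk4), -0.076 to 0.13 (Lats1), -0.27 to 0.23 (Mob1a), -0.29 to 0.028 (Mob1b) and -0.22 to 0.12 (Amot). After CCl4 they were -0.55 to 0.033 (Stk3), -0.10 to 0.17 (Stk4), -0.46 to 0.22 (Lats1), -0.31 to 0.17 (Amot) and -0.35 to 0.12 (Lats2). Ratios of Stk3 to Stk4 ran from -0.099 to 0.25, -0.19 to 0.46 and -0.59 to 0.067 with CCl4 in WT, in KO and between genotypes after CCl4, and Mob1a to Mob1b from -0.12 to 0.25 between untreated genotypes.

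Replicate numbers are not known to pair samples. Deviations of same-numbered samples correlated at a median of -0.039 over 22 pairs (-0.30 to 0.23), against -0.006 over 85 other pairs. These correlations cannot show that same-numbered samples share no batch. Depth limits Amotl1, which had 1 to 96 counts per library.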
